A study of Mus musculus with 3 samples.

Results

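The naive pluripotency factors described here are 10 genes, Zfp42, Nr0b1, Klf2, Klf4, Klf5, Esrrb, Tfcp2l1, Nr5a2, Prdm14 and Tcl1, chosen by name from the 55487 genes of the expression table. All 10 were found there, and all 10 had at least 10 counts in at least 1 library, as did 17655 genes in all, which are called genes in use. The RNA came from embryoid bodies (EBs), the cell aggregates in which mouse embryonic stem (ES) cells begin to differentiate once leukemia inhibitory factor (LIF) is withdrawn. The wild-type E14K line, a single line grown without feeder cells, was aggregated in hanging drops and then kept in suspension. DMSO-treated EBs were collected on day 3 and on day 4, and EBs given 30 μM C2 ceramide, a cell-permeable short-chain ceramide, from the beginning of day 3 were collected on day 4. The sample labels call the DMSO-treated EBs control, and the column headers and the study's methods name the vehicle. Each condition was 1 library, so no value below has a replicate error and no test between conditions was possible. Every interval given is a 95% exact interval of the counts and covers counting error only. For a gene it was taken from the whole count and carried over to the level or ratio. It thus leaves out how the reads were divided between transcripts of unlike length. The levels of whole EBs cannot tell fewer cells with a transcript from less of it per cell.

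In the mouse, naive pluripotency is the state of the preimplantation epiblast and of ES cells grown with LIF, before the formative and primed states that precede gastrulation. A network of transcription factors holds it, in which LIF acts through STAT3 on Klf4 and Tfcp2l1, Esrrb is held down by the repressor Tcf7l1, and the KLF factors bind many of the same sites as Oct4, Sox2 and Nanog. The members of this network are lost early during differentiation, whereas Pou5f1, which encodes Oct4, persists into the primed state.

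The 3 libraries held 33619197, 35078820 and 35290094 estimated counts, with the DMSO day 3 library first, that of DMSO day 4 next and that of C2 ceramide last, which is the order of every triplet of values below. Levels are given in TPM, in which a count is divided by transcript length and scaled to the same total in each library. All 8 markers of pluripotent epiblast and ES cells reached at least 1 TPM in every library. Their summed level was 3752, 2271 and 2735 TPM. Markers of other cell types were read beside the members, since some members are also made in those cells. The 10 markers of primitive and visceral endoderm summed to 17.7, 378 and 25.6 TPM, and the 8 of trophoblast to 54.9, 136 and 57.8 TPM, so both were highest in the DMSO day 4 library, where most members were lowest. Against DMSO day 3, however, more of these markers were higher with C2 ceramide, as the members were, than lower. Of the 10 endoderm markers 6 were higher and 2 lower, and of the 7 trophoblast markers in use 4 were higher and 1 lower. Of all genes with at least 10 counts in 1 library, 11.2% were higher and 9.39% lower. Of 8 primordial germ cell markers, which summed to 78.3, 117 and 130 TPM, 1 was higher and 1 lower in the C2 ceramide library than in the DMSO day 4 library, and 4 were higher than in the DMSO day 3 library. Zscan4c, Zscan4d, Zscan4f and Tcstv1, markers of two-cell-like cells, had no counts in any library. The 7 fibroblast genes were at a low level and together summed to 3.49, 3.62 and 14.3 TPM. Of the 6 in use, Dcn, Col1a2 and Thy1 were higher in C2 ceramide-treated EBs than in DMSO day 4 EBs, and Postn was lower. Against DMSO day 3 EBs, 5 of the 6 were higher with C2 ceramide, on the side of the members. Between the DMSO libraries, 4 of these fibroblast genes were higher on day 4 and 2 were lower, whereas no member was called. Their part in the results below was not tested.

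The 10 members lay at low to high levels. Their summed level was 283 TPM in DMSO day 3 EBs, 202 TPM in DMSO day 4 EBs and 672 TPM in C2 ceramide-treated day 4 EBs. As counts scaled to the library total (CPM), the sums were 441, 313 and 1009.6. The median member stood at 8.30, 6.82 and 27.1 TPM. Thus the C2 ceramide-treated EBs held the largest amount of these transcripts by either measure.

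**Figure D1:**
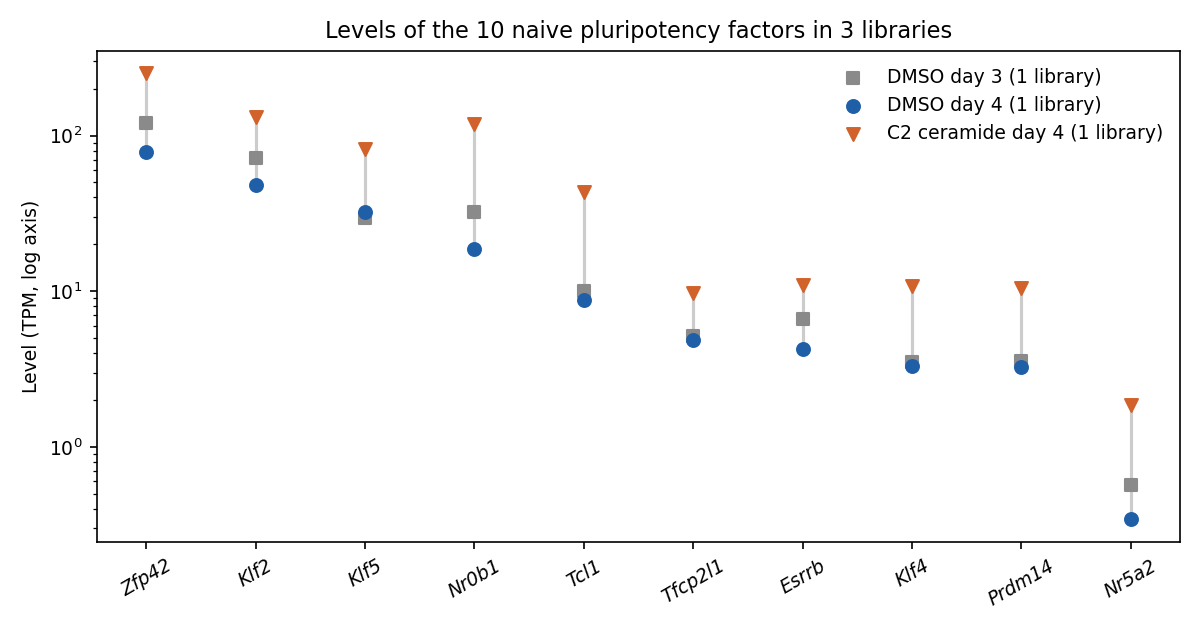
Level of each of the 10 naive pluripotency factors in the 3 libraries, in TPM on a log axis, with 1 point per library. The C2 ceramide day 4 point is the highest for all 10 genes, and the DMSO day 4 point is the lowest for 9 of them, the exception being Klf5.

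A gene was called higher when its TPM ratio was above 2 and lower when it was below 0.5, the thresholds of the study's own analysis. From DMSO day 3 to DMSO day 4, no member was higher, beside 12.8% of the genes in use, and none was lower, beside 9.45%. The members' median log2 ratio was −0.39 and their range was −0.78 to 0.13, against a median of 0.05 over all genes in use. The ratio was below 1 for 9 members, of which Zfp42, Nr0b1, Klf2, Esrrb and Nr5a2 had a counting interval wholly below 1. Klf4, Tfcp2l1, Prdm14 and Tcl1 had intervals that held a ratio of 1. By CPM, however, the ratios of Tfcp2l1 and Esrrb were 0.627 and 0.478, both below their intervals. Nr5a2 rested on 44 and 32 counts, its interval reached a ratio of 0.975, and its CPM ratio was nearer 1, at 0.697. Tcl1 was at 0.821 by CPM, and the interval of its main transcript lay wholly below 1 (log2 −0.55 to −0.06). The side on which these 2 members fell thus depended on the unit or the transcript. Klf5 was the member with a ratio above 1.

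With C2 ceramide on day 4, all 10 members were higher than with DMSO on day 4, beside 9.97% of the genes in use, and none was lower, beside 12.3%. Their median log2 ratio was 1.68, and they ranged from 1.01 for Tfcp2l1 to 2.67 for Nr0b1, whereas the median of all genes in use was −0.03. This contrast of C2 ceramide with DMSO is called the day 4 comparison below. Ranked by this ratio among the 17655 genes in use, Nr0b1 stood at place 522 from the top and Tfcp2l1 at place 1748. The counting interval lay wholly above 2-fold for 9 members, and that of Tfcp2l1 reached below it. The size of the rise differed between members by more than counting error, since the interval of Nr0b1, at 5.94 to 6.87-fold, lay far from that of Tfcp2l1, at 1.84 to 2.20-fold.

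**Figure D2:**
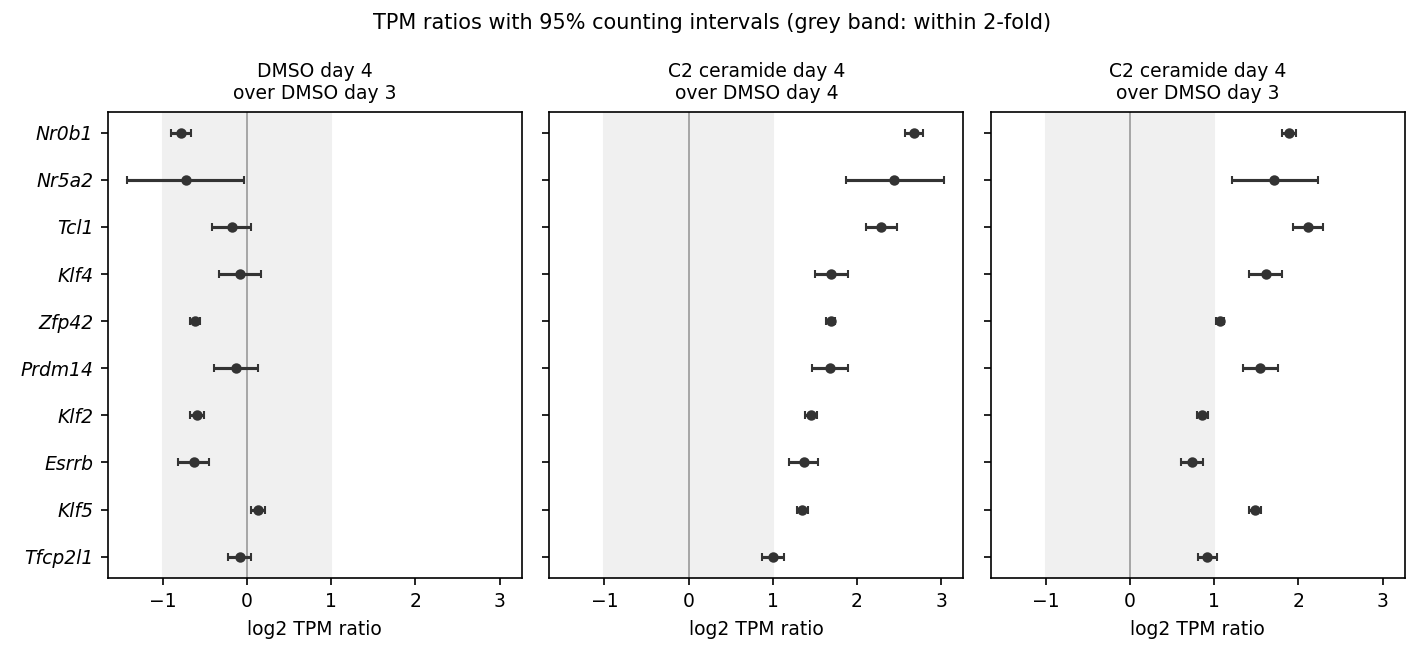
Log2 TPM ratio of each member in the 3 comparisons, with 95% counting intervals as bars and a grey band for ratios within 2-fold. All 10 members lie above 2-fold in the day 4 comparison, with the lower end of the Tfcp2l1 interval inside the band, and none lies beyond 2-fold between the DMSO libraries.

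The comparison of C2 ceramide-treated day 4 EBs with DMSO day 3 EBs addressed whether the members were only kept at the earlier level or stood above it. Of the 10 members, 7 were higher, beside 11.2% of the genes in use, and none was lower, beside 9.39%. The 3 that did not pass 2-fold were Klf2 at 1.81-fold, Tfcp2l1 at 1.89-fold and Esrrb at 1.66-fold. The median log2 ratio was 1.51 (range, 0.73 to 2.11), against 0.03 for all genes in use, and the counting interval of every member lay above a ratio of 1. Genes of other cell types were also higher than on DMSO day 3, namely 10 of 18 primitive and visceral endoderm genes, 6 of 12 trophoblast genes, 5 of 12 primordial germ cell genes, 5 of 6 fibroblast genes and 8 of 18 primitive streak genes in use. Lower were 2 endoderm, 2 trophoblast and 2 primitive streak genes, and the median log2 ratio of the streak genes was 0.02. The part of these cell types in this comparison was not tested. The 3 comparisons share libraries with each other, so a deviation in 1 library enters 2 of them.

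The following joint patterns were counted from the same 3 libraries. All 10 members were higher with C2 ceramide on day 4 without having been higher on DMSO day 4 than on DMSO day 3, a pattern of 8.89% of the genes in use. Higher with C2 ceramide than in both DMSO libraries were 7 members, beside 4.67% of the genes in use. The order C2 ceramide day 4 above DMSO day 3 above DMSO day 4 held for 9 members, all but Klf5, beside 15.5% of the genes in use.

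**Figure D3:**
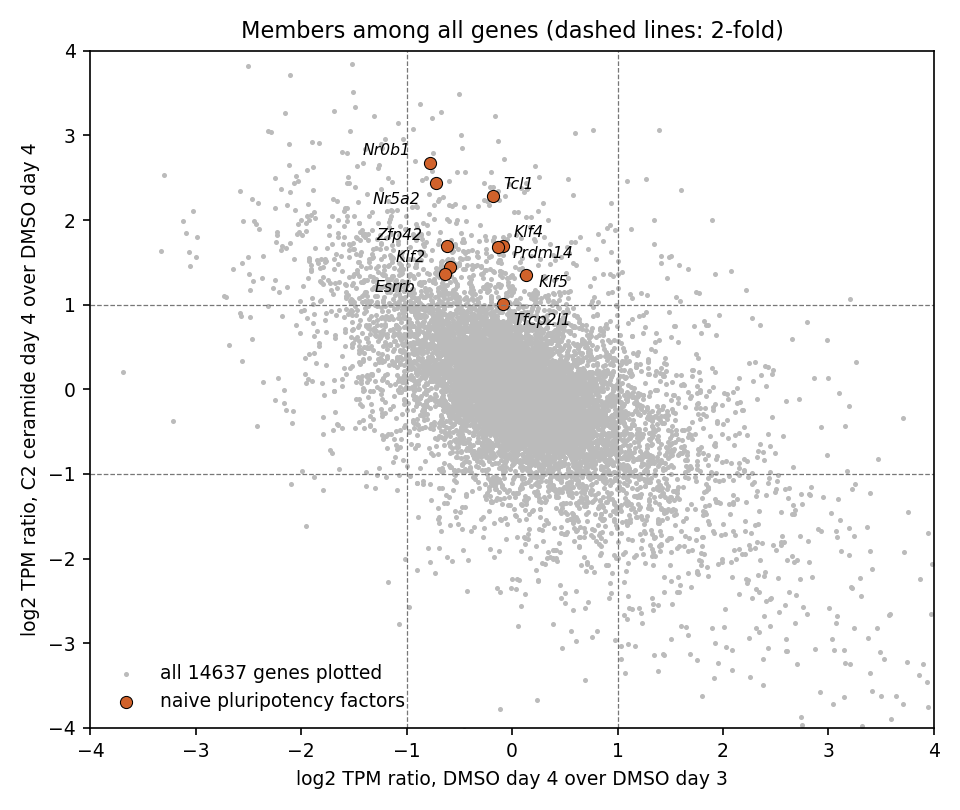
The change between the DMSO libraries (x axis) against the change with C2 ceramide on day 4 (y axis), both as log2 TPM ratios, for 14637 genes whose count reached 10 in each library, with the 10 members labelled and dashed lines at 2-fold. The DMSO day 4 library enters both axes, and the members lie above the upper line between the vertical ones.

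Zfp42 (chr8:43295063-43306980, minus strand, on GRCm38 as all coordinates here) encodes the zinc finger protein Rex1, the most used reporter of the naive state. Its level was 119.8 TPM in DMSO day 3 EBs, 78.2 TPM in DMSO day 4 EBs and 252 TPM in C2 ceramide-treated EBs, the highest of the members in every library. Among the genes in use it stood at the percentiles 91.5, 87.5 and 95.7. It was 3.22-fold higher with C2 ceramide than in DMSO day 4 EBs (log2 1.69, interval 1.63 to 1.74). Its estimated counts were not whole numbers, unlike those of the other members, so part of its reads may also fit other genes.

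Nr0b1 (chrX:86191764-86195947, plus strand) encodes Dax1, an orphan nuclear receptor that lacks a DNA-binding domain and binds other nuclear receptors and Oct4. It stood at 32.2, 18.7 and 119 TPM. It was 6.38-fold higher in the day 4 comparison (log2 2.67, interval 2.57 to 2.78), the highest ratio of the members, although the wider interval of Nr5a2 covers it. Over DMSO on day 3 it was 3.71-fold higher. It also had the lowest TPM ratio of the members between the DMSO libraries, a log2 value of −0.78 (interval −0.91 to −0.66). Intervals of other members, among them Nr5a2 and Esrrb, overlapped this one. By CPM, Esrrb had the lower ratio, 0.478 against 0.572 for Nr0b1.

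The promoter windows of both genes are shown because these members had the highest level and the highest day 4 ratio. Each window holds 300 bases, from 250 before to 50 after the annotated start, taken from RefSeq on GRCm38.p6 and printed in the direction of transcription. Capitals mark the matches to the motifs searched on both strands: ATGCAAAT for the Oct4 octamer, GGGNGTGG for KLF factors, ACAATGG for SOX factors, AAGGTCA and the longer TCAAGGTCA that contains it for Esrrb and Nr5a2, TTCCNGGAA for STAT3, CTTTGAT for TCF factors and AAGATGGC for Rex1 and its relative YY1.
Zfp42, chr8:43306960-43307259, minus strand: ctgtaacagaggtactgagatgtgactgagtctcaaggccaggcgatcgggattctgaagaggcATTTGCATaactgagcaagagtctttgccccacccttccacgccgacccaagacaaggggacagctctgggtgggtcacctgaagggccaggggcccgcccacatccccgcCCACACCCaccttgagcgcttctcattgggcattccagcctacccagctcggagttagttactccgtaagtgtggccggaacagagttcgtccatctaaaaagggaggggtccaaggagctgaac
Nr0b1, chrX:86191525-86191824, plus strand: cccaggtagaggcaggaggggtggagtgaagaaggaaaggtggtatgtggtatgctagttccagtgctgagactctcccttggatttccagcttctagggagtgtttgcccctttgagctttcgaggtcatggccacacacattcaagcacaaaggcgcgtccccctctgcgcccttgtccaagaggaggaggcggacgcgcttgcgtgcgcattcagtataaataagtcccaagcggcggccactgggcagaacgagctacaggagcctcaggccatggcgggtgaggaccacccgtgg
The Zfp42 window held the octamer at position −186 from the start, read on the opposite strand, and a KLF match at −75. Of all 32851 windows, 1.74% held the octamer and 17.6% the KLF motif. Nothing matched in the Nr0b1 window, which says only that these letters are not in it.

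Klf2, Klf4 and Klf5 encode the Krüppel-like zinc finger factors that act in part interchangeably in ES cell self-renewal. Klf2 (chr8:72319033-72321656, plus strand) was the most abundant of them, at 72.2, 47.9 and 131 TPM. In C2 ceramide-treated EBs it exceeded DMSO day 4 EBs by a log2 ratio of 1.45 (interval 1.38 to 1.52) and DMSO day 3 EBs by 0.86 (0.79 to 0.92). Klf4 (chr4:55527143-55532466, minus strand), a target of LIF and STAT3, was low in both DMSO libraries, at 3.53 and 3.33 TPM, and stood at 10.8 TPM with C2 ceramide. The DMSO values of Klf4 did not differ beyond counting error, with a log2 ratio of −0.09 (interval −0.33 to 0.16), and C2 ceramide gave a log2 ratio of 1.70 (1.50 to 1.90).

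Klf5 (chr14:99298691-99315036, plus strand) also acts in trophectoderm and in early epiblast. It was at 29.5, 32.3 and 82.5 TPM, so that it alone among the members had a ratio above 1 between the DMSO libraries (log2 0.13, interval 0.05 to 0.21). All genes in use had a median log2 TPM ratio of 0.05 in this comparison. Scaled with the edgeR or DESeq2 factors instead of TPM, the Klf5 log2 ratio was 0.06 or 0.07. The C2 ceramide ratio of Klf5 was 2.55-fold over DMSO on day 4 and 2.80-fold over DMSO on day 3. The 3 factors thus rose by 2.55 to 3.24-fold, and Klf2 and Klf5 ended far above Klf4 in TPM. Klf4 had the largest ratio, but its interval, 2.83 to 3.73-fold, overlapped that of Klf2, 2.60 to 2.87-fold.

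Of the other 14 KLF family genes, 10 stayed within 2-fold in the day 4 comparison. Beside 9.97% of all genes in use higher and 12.3% lower, 2 were higher (Klf11 and Klf8), 2 were lower (Klf1 and Klf14, both near 0 and named after their values were seen) and the median log2 ratio was 0.29. Klf11 stood at 5.08, 6.44 and 14.0 TPM (log2 1.12 over DMSO day 4). Klf8 stood at 1.92, 1.53 and 3.13 TPM (log2 1.03). Klf9 and Klf7, at log2 0.87 and 0.86, stayed under 2-fold.

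Esrrb (chr12:86361117-86521628, plus strand) encodes an orphan nuclear receptor that can stand in for Nanog and is also made in trophoblast progenitors. Its gene level was 6.60, 4.26 and 10.98 TPM. The log2 ratio was −0.63 (interval −0.82 to −0.45) between the DMSO libraries and 1.37 (1.20 to 1.54) in the day 4 comparison. Over DMSO on day 3 the ratio was 1.66, the smallest of the members by TPM, with an interval that overlapped that of Tfcp2l1. By CPM this ratio was 1.71, above the 1.50 of Tfcp2l1. By CPM, which does not weigh transcripts by length, Esrrb stood at 0.478 of its DMSO day 3 level on DMSO day 4, past the lower threshold. Its day 4 ratio by CPM was 3.58, above the interval of its TPM ratio, 2.29 to 2.91-fold.

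The Esrrb transcripts did not share these ratios. The main coding transcript, of 4196 bases, was at 5.48, 2.48 and 9.81 TPM, from 683, 316 and 1264 counts. It was therefore at 0.452 of its DMSO day 3 level on DMSO day 4, below the 0.5 threshold that the whole gene did not cross, and 3.96-fold higher in C2 ceramide-treated EBs than in DMSO day 4 EBs (log2 1.99, interval 1.81 to 2.17). It made up 83.1%, 58.2% and 89.3% of the gene's TPM. A shorter transcript of 1344 bases was at 0.637, 1.09 and 0.805 TPM. A processed transcript of 694 bases was at 0.339, 0.686 and 0.245 TPM. Between the DMSO libraries both ratios were above 1, but their log2 intervals, −0.03 to 1.63 and −0.83 to 3.17, held 0. A rise of either transcript was thus not beyond counting error. Both intervals lay above that of the main coding transcript, −1.34 to −0.95.

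Of the starts annotated for Esrrb, the 2 with a RefSeq window are printed, because the main coding transcript begins at the downstream one. The 1344-base and 694-base transcripts begin at neither.
Esrrb upstream start, chr12:86360867-86361166, plus strand: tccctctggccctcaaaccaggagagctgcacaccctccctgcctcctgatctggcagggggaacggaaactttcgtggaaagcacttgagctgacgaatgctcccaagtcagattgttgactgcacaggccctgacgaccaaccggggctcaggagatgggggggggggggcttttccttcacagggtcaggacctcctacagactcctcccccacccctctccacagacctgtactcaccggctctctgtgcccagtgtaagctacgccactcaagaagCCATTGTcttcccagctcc
Esrrb downstream start, chr12:86421394-86421693, plus strand: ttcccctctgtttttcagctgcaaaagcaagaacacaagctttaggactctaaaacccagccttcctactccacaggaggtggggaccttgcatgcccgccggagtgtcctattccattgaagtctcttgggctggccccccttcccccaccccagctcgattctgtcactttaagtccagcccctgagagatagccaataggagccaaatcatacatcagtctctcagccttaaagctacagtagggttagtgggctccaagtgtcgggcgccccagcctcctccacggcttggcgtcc
Transcripts from the upstream window had 18.1, 0 and 0 counts, and those from the downstream window had 683, 316 and 1272. The upstream window held a SOX match just after the start, a motif of 3.66% of all windows, and the downstream window held none of the motifs searched.

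Tfcp2l1 (chr1:118627945-118685168, plus strand) encodes a CP2 family factor and a direct target of STAT3. The gene stood at 5.13, 4.82 and 9.70 TPM, the smallest rise over DMSO on day 4 among the members, 2.01-fold (log2 1.01, interval 0.88 to 1.14). The coding transcript of 9269 bases was at 3.80, 2.40 and 5.73 TPM from 1030, 665 and 1607 counts. The day 4 ratio of this transcript was 2.39-fold (log2 1.26, interval 1.12 to 1.39), and on DMSO day 4 it stood at 0.632 of its DMSO day 3 level. The flat gene level between the DMSO libraries rested on a processed transcript of 478 bases, which gave 1.33, 2.42 and 3.97 TPM from only 7.70, 14.4 and 24.3 counts. That short transcript was 25.9%, 50.2% and 40.9% of the gene's TPM. By CPM the gene's day 4 ratio was 2.39, above the interval of its TPM ratio, 1.84 to 2.20-fold.

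**Figure D4:**
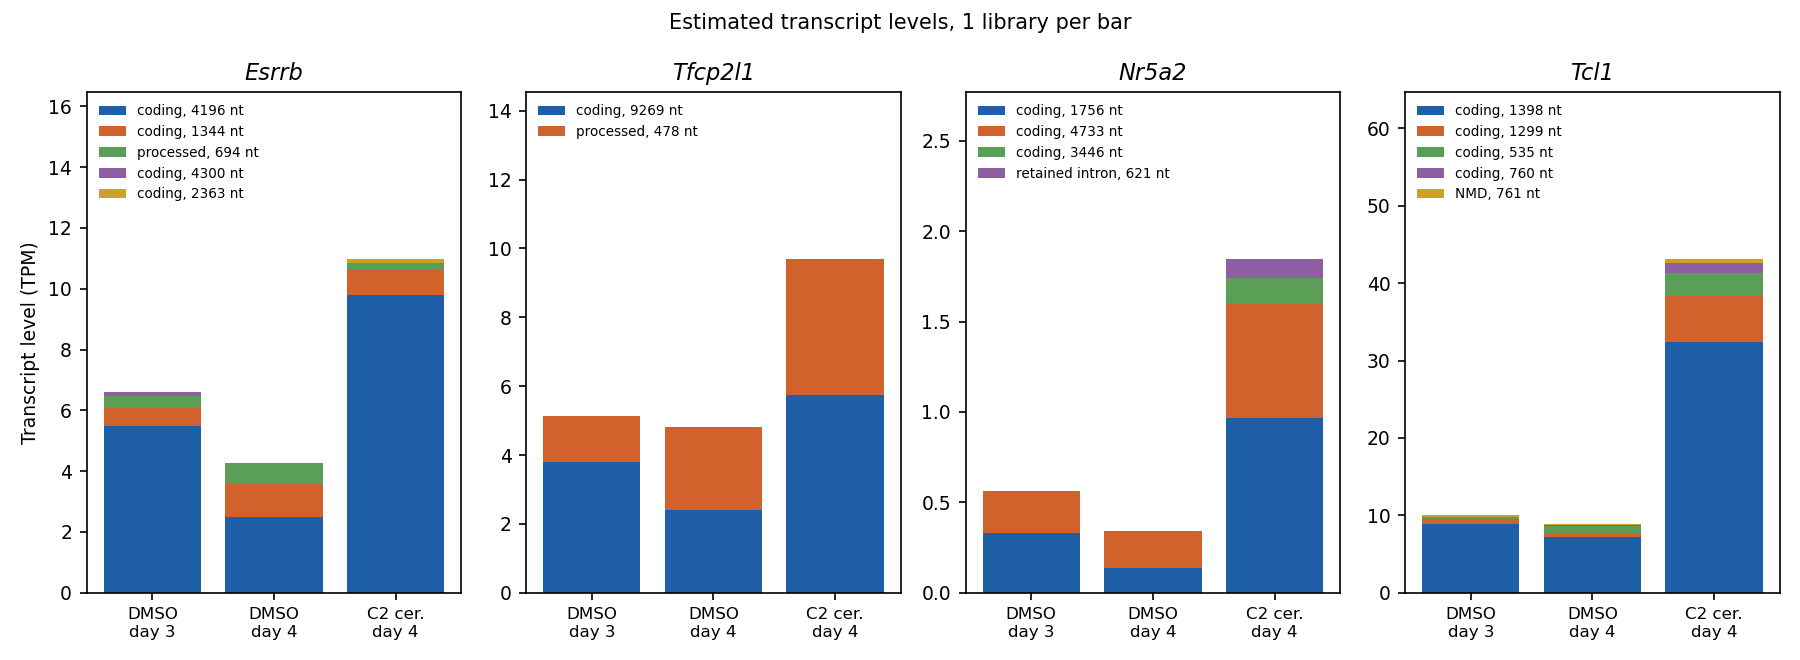
TPM of the transcripts of Esrrb, Tfcp2l1, Nr5a2 and Tcl1 in the 3 libraries, with 1 stacked bar per library and the bars starting at 0. The main coding transcript of Esrrb falls to 2.48 TPM on DMSO day 4 and reaches 9.81 TPM with C2 ceramide, and the short processed transcript of Tfcp2l1 makes up 50.2% of that gene on DMSO day 4.

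Nr5a2 (chr1:136842571-136960448, minus strand) encodes Lrh-1, a nuclear receptor that binds the Pou5f1 control regions and is also made in endoderm. It was the least abundant member, at 0.564, 0.341 and 1.85 TPM from 44, 32 and 141 counts. It was 5.42-fold higher with C2 ceramide than in DMSO day 4 EBs, with a wide interval (log2 2.44, 1.88 to 3.04). The 2 starts with a RefSeq window are shown because the most abundant transcripts begin there, and transcripts with fewer counts begin elsewhere.
Nr5a2 upstream start, chr1:136960399-136960698, minus strand: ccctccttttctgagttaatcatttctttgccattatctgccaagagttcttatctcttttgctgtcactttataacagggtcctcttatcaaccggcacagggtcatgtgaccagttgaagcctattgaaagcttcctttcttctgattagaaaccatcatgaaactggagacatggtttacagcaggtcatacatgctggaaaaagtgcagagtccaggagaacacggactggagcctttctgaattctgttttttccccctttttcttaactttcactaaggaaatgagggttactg
Nr5a2 downstream start, chr1:136953581-136953880, minus strand: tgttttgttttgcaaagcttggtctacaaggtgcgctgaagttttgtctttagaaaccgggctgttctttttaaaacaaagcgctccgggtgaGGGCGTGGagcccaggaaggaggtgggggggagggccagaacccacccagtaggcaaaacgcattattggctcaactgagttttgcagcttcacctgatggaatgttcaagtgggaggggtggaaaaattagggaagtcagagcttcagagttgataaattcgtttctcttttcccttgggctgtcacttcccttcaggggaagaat
The 4733-base transcript from the upstream start had 28.9, 25.5 and 80.7 counts, a day 4 TPM ratio of 3.14. The 1756-base transcript from the downstream start had 15.1, 6.48 and 45.9 counts. Both were highest with C2 ceramide, at low counts. The downstream window held a KLF match at −157, and the upstream window held none of the motifs.

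Among the relatives and cofactors of these receptors, 4 of 7 genes were in use, and 1 of the 4 was higher in the day 4 comparison. That gene was the coactivator Ncoa1, at 3.08, 2.38 and 4.96 TPM (log2 1.06). Ncoa3, the Esrrb coactivator, stood at 18.1, 14.1 and 26.0 TPM (log2 0.88). Esrra, the close relative of Esrrb, stood at 6.58, 7.36 and 5.47 TPM (log2 −0.43). Of the 5 other grainyhead and CP2 family genes, Grhl1 alone was higher, at 2.34, 1.12 and 2.60 TPM, and Tfcp2, the nearest relative of Tfcp2l1, stood at 5.50, 9.10 and 5.89 TPM.

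Prdm14 (chr1:13113457-13127163, minus strand) encodes a PR-domain protein that represses FGF signaling and de novo DNA methylation genes in ES cells and germ cells. It stood at 3.58, 3.27 and 10.5 TPM. The DMSO libraries did not differ beyond counting error (log2 −0.13, interval −0.39 to 0.13), and C2 ceramide gave a log2 ratio of 1.68 (1.46 to 1.89) over DMSO on day 4. Of 13 other PRDM genes and Prdm14 partners in use, 2 were higher and 3 lower with C2 ceramide on day 4. Over all genes in use, 9.97% were higher and 12.3% lower. Prdm16, at 0.196, 0.375 and 1.72 TPM, and Prdm9, at 1.38, 0.454 and 1.73 TPM, were the higher genes, and the lower ones were Prdm6, Prdm8 and, named after its value was seen, Cbfa2t3.

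The genes of DNA methylation and demethylation, with which Prdm14 is linked, were counted beside it. Of 9, Tet2 was higher in the day 4 comparison, at 3.43, 0.816 and 2.36 TPM, and none was lower. Tet1 stood at 31.7, 14.1 and 25.1 TPM (log2 0.84). The de novo methyltransferase Dnmt3b stood at 736, 383 and 365 TPM, so that its ratio on day 4 was near 1 (log2 −0.07), while its cofactor Dnmt3l stood at 83.1, 47.9 and 76.4 TPM. The list's median log2 ratio was 0.43.

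Tcl1 (chr12:105216750-105222793, minus strand) encodes a coactivator of the kinase AKT and is a target of Oct4 in ES cells. It stood at 9.99, 8.83 and 43.1 TPM. Tcl1 rose 4.89-fold over DMSO on day 4 (log2 2.29, interval 2.10 to 2.48). Over DMSO on day 3 it rose 4.32-fold, the largest ratio of the members, though its interval overlapped those of Nr0b1 and Nr5a2. Its main transcript of 1398 bases was at 8.85, 7.16 and 32.4 TPM, and a second one of 1299 bases went from 0.613 TPM on DMSO day 4 to 6.0 TPM in C2 ceramide-treated EBs, on 20.0 and 198 counts. The share of the main transcript was thus 88.6%, 81.1% and 75.0%.

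The 5 neighboring Tcl1b genes had no counts in any library, for which a floor of 3 counts allows at most 0.0850 to 0.0892 CPM. Of the 4 genes in use from the TCL1 and AKT list, 1 was higher, the Tcl1 relative Mtcp1 at 1.68, 0.639 and 1.32 TPM. Akt1 stood at 47.5, 58.3 and 47.5 TPM (log2 −0.30 over DMSO day 4). Akt2 stood at 22.8, 29.8 and 31.9 TPM.

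RefSeq windows were matched for 8 of the 10 members, giving 10 windows. The KLF motif was found for Zfp42, Nr5a2 and Tfcp2l1, the last with 2 matches at −61 and −47. AAGGTCA, found in 4.72% of all windows, its longer form TCAAGGTCA (0.423%), TTCCNGGAA (1.15%), CTTTGAT (3.73%) and AAGATGGC (2.75%) matched in none of the 10. The windows differed widely in CpG number, with 40 in Klf4, 32 in Klf2, 21 in Tfcp2l1 and 14 in Nr0b1, but 11 in Zfp42 and in Tcl1, 7 in each window of Esrrb, and 2 and 7 in the upstream and downstream windows of Nr5a2. The median over all windows was 7.

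Within each library, the order of the levels began with Zfp42 and Klf2 and ended with Nr5a2. Between these, Nr0b1 and Klf5 changed places, with 32.2 against 29.5 TPM in DMSO day 3 EBs, 18.7 against 32.3 TPM in DMSO day 4 EBs and 119 against 82.5 TPM in C2 ceramide-treated EBs. Tcl1 came next after these 4 in every library. In DMSO day 3 EBs the intervals of Nr0b1, 30.6 to 33.9 TPM, and Klf5, 28.3 to 30.7 TPM, overlapped. Esrrb stood above Tfcp2l1 in DMSO day 3 EBs, and in DMSO day 4 EBs their intervals overlapped, at 3.83 to 4.72 and 4.47 to 5.20 TPM. Klf4 and Prdm14 were neighbors that did not differ beyond counting error in any library. In C2 ceramide-treated EBs, Klf4 at 10.1 to 11.5 TPM, Esrrb at 10.4 to 11.6 TPM, Prdm14 at 9.73 to 11.2 TPM and Tfcp2l1 at 9.23 to 10.2 TPM formed a run of overlapping intervals.

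The median change of the core factors was smaller than that of the members. Pou5f1 stood at 949, 628 and 911 TPM, which gave 0.54 (interval 0.51 to 0.56) as its log2 ratio in the day 4 comparison. Nanog stood at 87.9, 78.9 and 105.9 TPM, and its ratio was 0.42 (0.37 to 0.48). Sox2, at 102, 51.2 and 120.2 TPM, passed 2-fold (log2 1.23). Of the 16 core pluripotency genes, 4 were higher with C2 ceramide on day 4 (Sox2, Utf1, L1td1 and Foxd3), none was lower, and the median log2 ratio was 0.50. The shares of all genes in use were 9.97% higher and 12.3% lower. None of the 16 was beyond 2-fold of DMSO day 3, where 7 of the 10 members were.

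Set against Pou5f1, Zfp42 stood at 12.6, 12.4 and 27.7 TPM for each 100 TPM of Pou5f1, and Klf2 at 7.61, 7.62 and 14.4. Both genes thus kept nearly the same proportion to Pou5f1 in the DMSO libraries and had a higher one with C2 ceramide. Nr0b1 stood at 3.39, 2.98 and 13.1, and Tcl1 at 1.05, 1.41 and 4.73 for each 100 TPM of Pou5f1. Klf5, at 3.11, 5.14 and 9.05, gained in both steps.

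A wider list of 31 other naive and ES cell genes held 17 that were higher in the day 4 comparison, with a median log2 ratio of 1.06. Set beside DMSO day 3, 7 of them were higher and 1, Aire, was lower; the median was then 0.42. Tbx3, a T-box factor of the LIF network, stood at 6.98, 8.13 and 27.3 TPM. Spic, an ETS factor, stood at 0.475, 0.711 and 3.50 TPM. The adhesion gene Jam2, at 13.9, 9.71 and 38.9 TPM, and the TGF-β family ligand Gdf3, at 22.5, 11.7 and 41.8 TPM, also rose. Not all of the list went this way, since Tdgf1, Upp1 and Aire, named after their values were seen, were lower; Tdgf1, the Nodal coreceptor, stood at 469, 697 and 242 TPM.

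**Figure D5:**
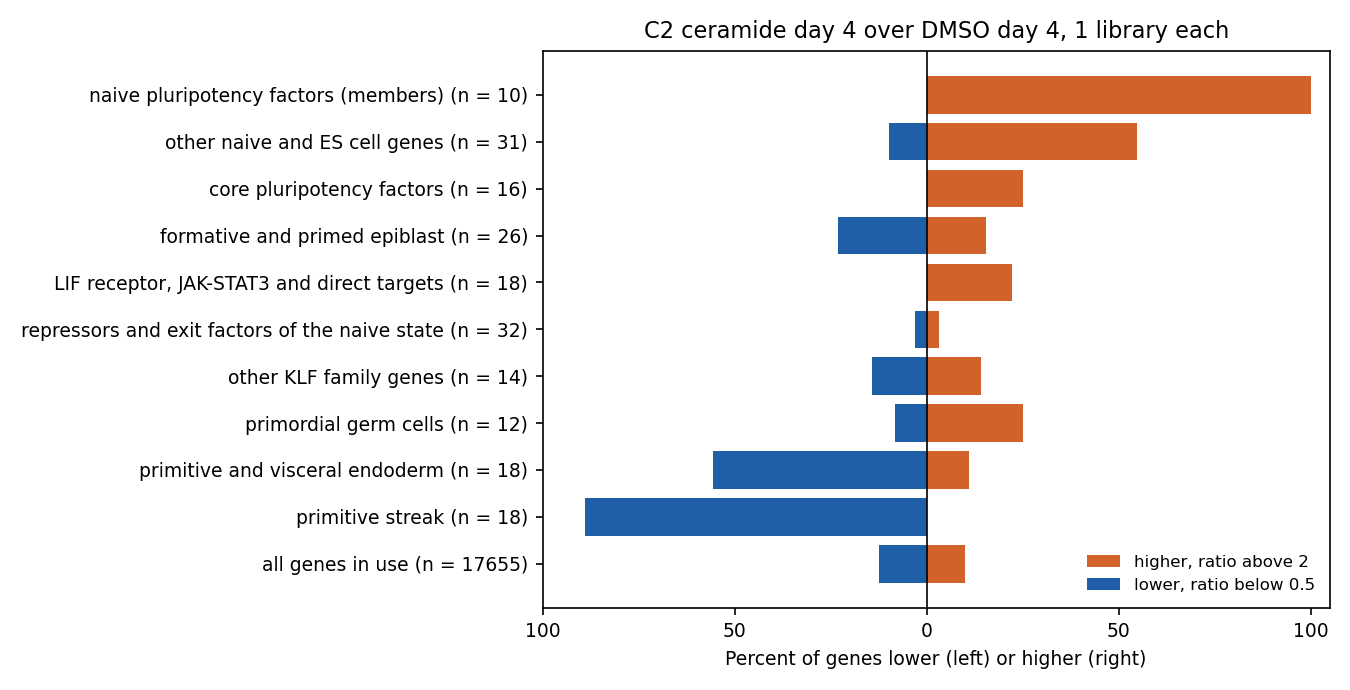
Genes called higher (TPM ratio above 2, bars to the right) and lower (below 0.5, bars to the left) in the day 4 comparison, as a percent of the genes in use of the members, of 9 gene lists and of all genes, with n beside each name. All 10 members and 17 of 31 other naive and ES cell genes are higher, and 16 of 18 primitive streak genes are lower.

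The LIF and STAT3 arm was read from 18 genes of the receptor, the JAK-STAT3 pathway and its direct targets. Of these, 4 were higher and none lower with C2 ceramide on day 4, and 5, with Pim1 added after its value was seen, were higher than on DMSO day 3, with a median log2 ratio of 0.39 on day 4. Of all genes in use, 9.97% were higher and 12.3% lower on day 4, and 11.2% were higher than on DMSO day 3. Socs3, the feedback inhibitor of the pathway, stood at 1.35, 2.52 and 9.43 TPM (log2 1.90 over DMSO day 4). Gbx2, a homeobox target, stood at 2.37, 2.76 and 17.2 TPM (log2 2.64), Bcl3 at 2.32, 3.27 and 7.23 TPM, and Ifitm3 at 184, 180 and 401 TPM. The EBs were made without LIF, and no ligand or phosphorylation was measured here.

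Most genes that oppose or leave the naive state stayed within 2-fold in the day 4 comparison. Of 32 repressors and exit factors, 30 did so, 1 was higher (Nr2f2, near 0 and named after its value was seen) and 1 lower, with a median log2 ratio of 0.12. The lower one was Etv4, an ETS factor downstream of FGF signaling, at 11.1, 25.6 and 9.59 TPM. In the day 4 comparison, 9.97% of all genes in use were above 2-fold and 12.3% were below 0.5. Of 26 formative and primed epiblast genes, 4 rose past 2-fold and 6 fell below 0.5 in the day 4 comparison, with a median of −0.38. The 4 were Pou3f1, Sox3, Foxd3, which is also a core gene, and Sall2, named after its value was seen. Pou3f1, which encodes the formative factor Oct6, stood at 97.2, 20.7 and 73.4 TPM and Sox3 at 9.72, 2.04 and 9.03 TPM, both higher than with DMSO on day 4 but near their DMSO day 3 levels. Cdh2, the cadherin of cells leaving the epiblast, stood at 2.67, 73.7 and 8.44 TPM, and Lef1 at 15.9, 40.0 and 12.3 TPM.

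Lists of other cell types and of partners completed the reading of the day 4 comparison. Beside them, 9.97% of all genes in use were higher and 12.3% lower. Of 18 primitive streak genes, 16 were lower with C2 ceramide and none was higher, beside a rise of 15 between the DMSO libraries. Among 18 primitive and visceral endoderm genes, 10 were lower and 2 higher (Cubn and Sox7, named after their values were seen), and of 12 trophoblast genes in use Cdx2, Eomes, Hand1 and Krt8 were lower. Of 12 primordial germ cell genes, 3 were higher, namely Dazl, at 1.52, 1.64 and 8.24 TPM, Mael, at 5.86, 4.50 and 10.4 TPM, and Ifitm3, and Dnd1 was lower, at 24.2, 31.2 and 15.2 TPM. Among 7 genes of Rex1 relatives and X inactivation, Tsix was higher, and Xist and Jpx were lower, all at under 3 TPM. The Rex1 relatives Yy1, at 2.67, 4.82 and 4.94 TPM, and Yy2, at 0.833, 2.97 and 5.05 TPM, stayed under 2-fold on day 4, as did Rlim, whose product degrades Rex1, at 14.8, 13.1 and 13.2 TPM. Of 15 two-cell-like genes 2 were in use, and 1 of them, Tcstv3, was lower, with 18 counts in the DMSO day 4 library and 0 in the others.

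The genes closest to each member were sought by the distance between their pairs of log2 ratios (between the DMSO libraries, and with C2 ceramide on day 4), among 10462 protein-coding genes whose count reached 100 in each library. The distance rests on 3 libraries. The nearest genes were Phf11d, Cpsf4l and Ciart for Zfp42, at 0.09, 0.11 and 0.15. Nr0b1 and Nr5a2 had the same nearest genes, Spp1, Mef2b and Arid5a, of which Spp1 lay at 0.21 from Nr0b1 and 0.13 from Nr5a2. Klf4 and Prdm14 likewise shared Mylpf, Sema3b and Id2, with Mylpf at 0.08 and 0.04. The remaining members had very near neighbors, at 0.02 for Ddit3 from Klf2, Gpt2 from Klf5 and Hsf2bp from Tfcp2l1, at 0.04 for Bclaf3 from Esrrb and at 0.08 for Folr1 from Tcl1.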

How the data were processed

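Total RNA of EBs was treated with DNase I, amplified with SMART-Seq v4 and sequenced as Nextera XT libraries on a NovaSeq instrument. The authors quantified the reads with DRAGEN on GRCm38 and GENCODE M25, and the deposited gene and transcript tables hold an estimated count and a TPM per sample. Depth was 33619197 to 35290094 counts per library, with 1 library in each of 3 groups, so no p-value was computed. Ratios of TPM were taken, with a TPM of 0 set to 0.001, for genes whose count reached 10 in 1 library or more, and called beyond 2 or 0.5. Counting intervals (95%) are exact conditional binomial for ratios and exact Poisson for levels, from counts rounded to whole numbers. They were shifted or scaled to the TPM value, without the error of dividing reads between transcripts. The rounded counts were scaled with edgeR 4.0.16 (TMM) and DESeq2 1.42.0 (size factors), R 4.3.3, as alternatives only. Python 3.11.15 with NumPy 2.4.6, pandas 2.3.3, SciPy 1.17.1 and Matplotlib 3.10.9 was used, and the ratio script was tested on simulated data. The members and the 18 gene lists were chosen with earlier results of these data known. All members are named. From a list, the text names the 4 genes with the largest day 4 ratio in size among those with at least 50 counts in 1 library, and any gene of lists of 10 or fewer, besides the markers fixed with the lists and counts of 5 or fewer. For each member, the 3 genes of nearest pattern were found. Promoters came from RefSeq (GRCm38.p6).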

Additional observations from a re-analysis of the deposited data

How the results depend on the processing

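No paired analysis was possible because each condition has 1 library. The members' calls moved with the threshold and the unit. Between DMSO day 4 and DMSO day 3, 0 members were lower by TPM, but 1 (Esrrb) by CPM, 1 by TMM scaling, 1 by DESeq2 size factors, 2 (Esrrb and Nr5a2) by the main transcript and 5 (also Zfp42, Nr0b1 and Klf2) at 1.5-fold. For C2 ceramide over DMSO on day 4, 3 of 10 (Nr0b1, Nr5a2 and Tcl1) passed 4-fold, and 9 passed 2-fold with 0.1 or 1 TPM added or with the interval beyond 2-fold, Tfcp2l1 being lost. Over DMSO day 3, 1 of 7 (Tcl1) passed 4-fold, 10 passed 1.5-fold, and 6 passed 2-fold with 1 TPM added, Nr5a2 being lost. Under 8 other settings of scaling, pseudocount or transcript, 1 of them (the protein-coding transcripts summed) chosen after seeing the data, as was the order of levels by CPM, which held for 9 members, all 80 member values of C2 ceramide over DMSO day 4 stayed above 0 (log2 0.88 to 2.80), as did all 80 over DMSO day 3 (0.57 to 2.12). Between the DMSO libraries 72 of 80 stayed below 0 (−1.25 to 0.13), the 8 above 0 being those of Klf5. Depth limits Nr5a2 most, with 32 counts in the DMSO day 4 library. Without replicates, the spread between EB cultures is not known for any value.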
